A study of Bienertia sinuspersici with 9 samples.

Results

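The metabolite carriers described here were 3 of the 11709 unigenes of Bienertia sinuspersici leaves for which normalized expression was deposited. They were taken by their unigene names: DTC (BS12288_c0_g1_i2), UCP1 (BS2112_c0_g1_i4) and TPT (BS25442_c1_g1_i1). The study had screened transporters of the cycle partly by abundance and fold change in these same libraries. The levels and rises given here may thus not be independent of that screen. Bienertia is a plant that carries out C4 photosynthesis within single leaf cells, with chloroplasts of different types in a central and a peripheral compartment of each cell. The RNA came from leaves of greenhouse-grown wild-type plants at 3 developmental stages (young, intermediate and mature), with 3 biological replicates per stage and thus 9 libraries. Mature leaves were sampled at the tip alone, unlike the other stages, so stage and leaf portion cannot be told apart wherever mature leaves are compared. In RNA of leaf tissue a smaller number of cells of a type and a lower RNA content per cell cannot be told apart either. Which plants each replicate came from was not stated in the labels or methods. The p-values therefore refer to the spread among libraries, and how far this is a spread among plants is unknown.

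In the NAD-ME type of C4 photosynthesis, 4-carbon acids made in one compartment are decarboxylated in mitochondria, and the CO2 released there is fixed again in nearby chloroplasts. Metabolites must therefore cross mitochondrial and chloroplast membranes, which takes carrier proteins. DTC is a dicarboxylate/tricarboxylate carrier of the mitochondrial inner membrane that exchanges acids such as malate, oxaloacetate, 2-oxoglutarate and citrate. UCP1 is a mitochondrial inner-membrane carrier of the uncoupling protein family, and its Arabidopsis relative has been described to exchange aspartate and glutamate. TPT, the triose phosphate/phosphate translocator of the chloroplast inner envelope, exports triose phosphates and 3-phosphoglycerate in exchange for phosphate. The gene names follow the annotation of the study. No unigene or protein sequence was at hand here, so the names were not checked.

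Transcripts of DTC, UCP1 and TPT were also followed by quantitative RT-PCR, and the primers are the only sequences of the carrier transcripts used here. They are shown because each pair defines the stretch of transcript by which a carrier was followed outside RNA-seq. They run 5′ to 3′, and capitals mark the last 5 bases at the 3′ end, from which the polymerase extends.
DTC forward: tcagttggtcttggtGAAGC
DTC reverse: aatccagaaacggcaCTAGC
UCP1 forward: aacatctccgacgtGATCC
UCP1 reverse: gtttggtggtctaaggATTGG
TPT forward: ccaacaccttagagaggGTAGC
TPT reverse: ttcaagacgtttccaACTGC
The 6 primers had 19 to 22 bases and a GC content of 45% to 54.5%. The RT-PCR values were not used here.

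Expression was read on the TPM and the TPMTMM scale. TPM is a transcript's share of a library, per length and scaled to the same total in every library, so it compares carriers with each other within a library. TPMTMM is TPM scaled between libraries by the trimmed mean of M values, and it was the scale of the tests between stages. The factor that turned TPM into TPMTMM was 0.841 to 0.875 in young, 0.888 to 0.999 in intermediate and 1.23 to 1.31 in mature libraries. Without it the median unigene fell by 0.57 on the log2 scale from young to mature leaves, against a median change of -0.02 with it. Read depth behind a value is unknown, because neither table holds counts. The labelled tissue was checked with 6 photosystem and chlorophyll genes, none of which was at 0 in any library and whose summed TPMTMM was 1320 to 1786 in young, 2178 to 2635 in intermediate and 3425 to 4989 in mature libraries. Across unigenes, deviations from the stage mean were correlated between libraries. Between young and intermediate libraries the highest r was 0.696, for young replicate 3 and intermediate replicate 3. The lowest was -0.609, for young replicate 2 and intermediate replicate 3. Deviations within a stage cancel out, so positive and negative r come together. Whether libraries varied independently of each other was not tested.

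TPT was the most abundant of the 3 carrier transcripts in every library, and its TPMTMM was higher at each later stage. Its TPMTMM was 543, 575 and 376 in young replicates 1, 2 and 3. It was 832, 793 and 754 in intermediate leaves and 1657, 1299.8 and 1142 in mature leaves. On this scale no library of one stage overlapped with those of another, and replicate 3 was the lowest library at each stage. Such an upward separation was seen in 18.2% of unigenes from young to intermediate and in 21.8% from intermediate to mature leaves. In TPM the intermediate (754 to 935) and mature libraries (874 to 1342) of TPT overlapped. The stage means were 498 ± 107 (SD, n = 3), 793 ± 38.7 and 1366 ± 264 TPMTMM, a 2.74-fold rise from young to mature leaves. Within libraries TPT was the 164th to 295th most abundant of 36907 unigenes in young leaves by TPM, the 109th to 140th at the intermediate and the 108th to 135th at the mature stage.

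UCP1 was the least abundant carrier in young and intermediate leaves and rose at each step. Its TPMTMM was 189, 174 and 160.2 in young replicates 1, 2 and 3. It was 245, 233 and 318 in intermediate leaves and 384, 442 and 424 in mature leaves. The 3 stages again did not overlap on this scale (upward in 18.2% and 21.8% of unigenes per step), with intermediate replicate 3 the closest to the mature libraries. In TPM the intermediate (255 to 317) and mature libraries (309.6 to 358) of UCP1 overlapped. The means were 174 ± 14.2, 265 ± 45.8 and 417 ± 29.8 TPMTMM (SD, n = 3 each), which is 2.39-fold more in mature than in young leaves. Its rank by TPM was 631 to 710 in young, 441 to 538 in intermediate and 335 to 389 in mature libraries.

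On the TPMTMM scale DTC had its lowest values in young leaves. The TPMTMM of DTC was 236, 251 and 209 in young replicates 1, 2 and 3. It was 309, 299 and 339 in intermediate leaves and 391, 332 and 304 in mature leaves. On this scale young libraries lay below all others, while intermediate and mature libraries overlapped. Such an upward separation was seen in 18.2% of unigenes from young to intermediate and in 28% from young to mature leaves. The means were 232 ± 21, 316 ± 20.5 and 342 ± 44.4 TPMTMM (SD, n = 3 each), a 1.48-fold rise from young to mature leaves. In TPM the mature libraries of DTC (232 to 316) overlapped with the young ones (238 to 297). They all lay below the intermediate ones (328 to 347), as was seen in 35.3% of the 36907 unigenes. By TPM its rank was 473 to 543 in young, 405 to 422 in intermediate and 383 to 501 in mature libraries.

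**Figure D1:**
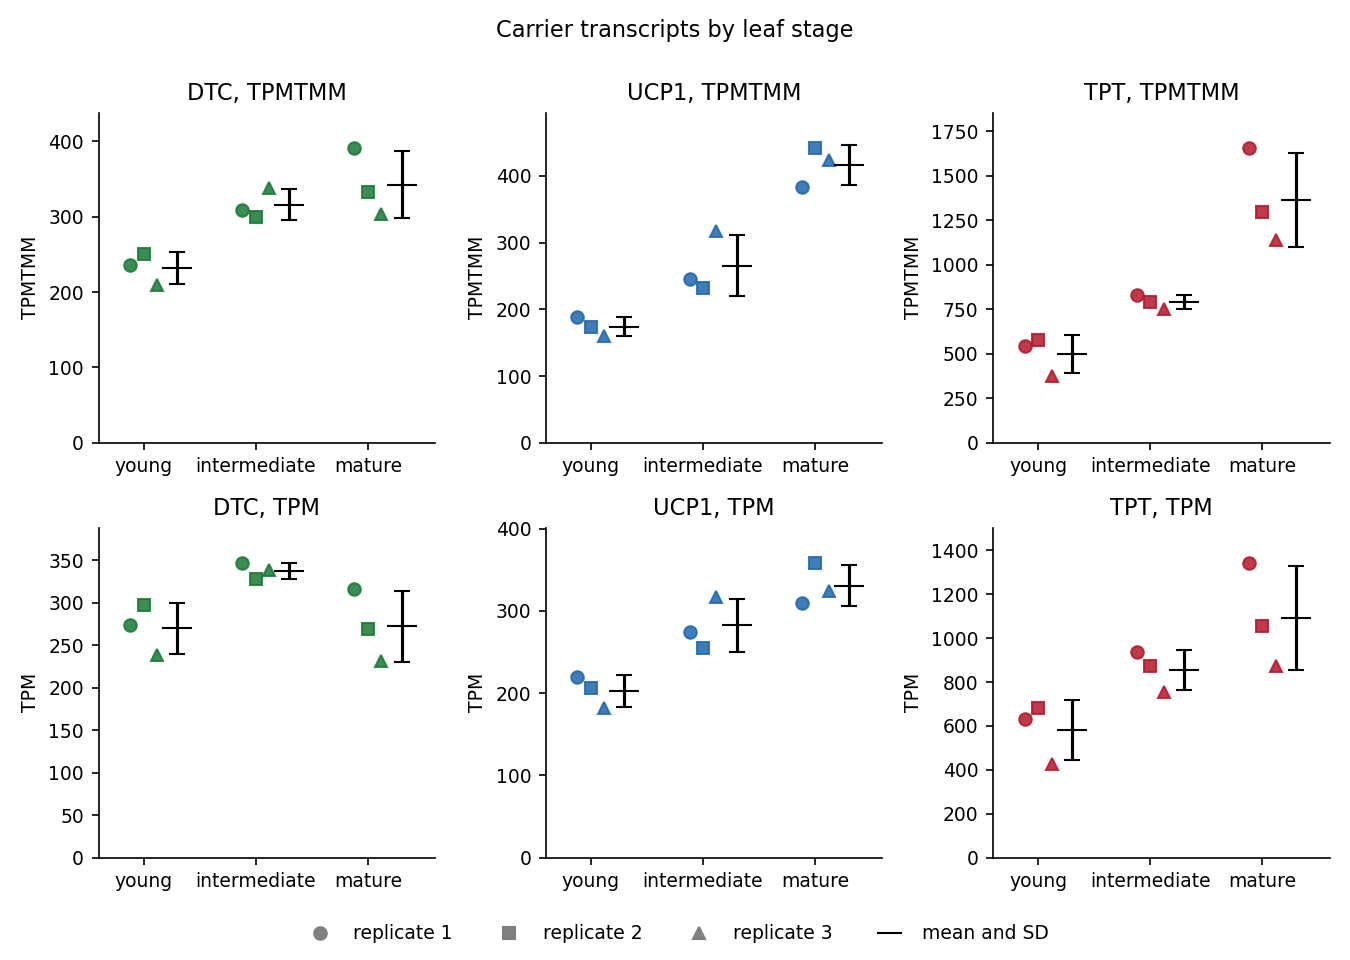
Level of DTC, UCP1 and TPT in the 9 libraries, as TPMTMM (upper row, y axis from 0) and TPM (lower row, y axis from 0), by leaf stage; symbols are replicates 1, 2 and 3, and the bar is the mean with its SD. On the TPMTMM scale TPT and UCP1 had no overlap between stages, while mature DTC (304 to 391) overlapped with intermediate DTC (299 to 339). In TPM both TPT and UCP1 overlapped between intermediate and mature leaves. Mature DTC in TPM (232 to 316) overlapped with young DTC (238 to 297). It lay below intermediate DTC (328 to 347), as for 35.3% of the 36907 unigenes.

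From young to mature leaves all 3 carriers rose. By limma on log2(TPMTMM + 1), with p-values adjusted over the 11709 unigenes by Benjamini-Hochberg, TPT rose by 1.46 on the log2 scale (standard error 0.20, adjusted p = 0.000366). UCP1 rose by 1.25 (standard error 0.14, adjusted p = 0.000112 from limma). DTC rose by 0.56 (standard error 0.12, adjusted p = 0.00546 from limma). Rising was common in this comparison, since 24.2% of all unigenes passed the test upward, and 28% had every mature library above every young library, as all 3 carriers had. A larger change than that of TPT was seen in 5.50% of unigenes, than that of UCP1 in 7.65%, and than that of DTC in 20.7%. The median change of the 3 carriers was 1.25, against -0.02 over all unigenes. DTC is the carrier whose call depended on scaling. In TPM without scaling its young mean was 269.9 ± 29.7 and its mature mean 272 ± 42.0 (SD, n = 3 each), a log2 change of 0.01 (limma, adjusted p = 0.965), where the median unigene fell by 0.57. Relative to the median unigene the DTC change was 0.58 without and 0.58 with scaling. This match was fixed beforehand, because a factor per library shifts nearly all unigenes alike and drops out. It is therefore no check of the DTC rise. In TPM without scaling 1297 unigenes passed the test upward and 6663 downward, against 2829 and 2801 with scaling.

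From young to intermediate leaves UCP1 alone passed the test, with a rise of 0.59 on the log2 scale (standard error 0.14, adjusted p = 0.0431 from limma), a 1.52-fold difference of means. In this comparison 2.99% of all unigenes passed upward. The changes of TPT (0.69, standard error 0.20, adjusted p = 0.0754 from limma) and DTC (0.45, standard error 0.12, adjusted p = 0.0705 from limma) did not pass, although every intermediate library lay above every young library for all 3 carriers, as for 18.2% of unigenes. When these 2 stages were fitted alone with replicate number as a block, all 3 passed, with adjusted p = 0.0306 for DTC, 0.0197 for UCP1 and 0.0159 for TPT, where 12.9% of unigenes passed upward. Equal numbers are not stated to be pairs. In deviations from the stage means, young replicates 1 and 2 correlated better with intermediate replicates 2 and 1. The UCP1 call was also fragile without the block. It was lost when any library other than mature replicate 1 was left out (log2 change 0.46 to 0.68, adjusted p = 0.058 to 0.13 from limma). In those fits 9 to 281 of the 11709 unigenes passed upward, against 350 with all libraries. Without mature replicate 1 all 3 carriers passed (adjusted p = 0.0393 for DTC, 0.034 for UCP1 and 0.045 for TPT from limma), where 620 unigenes passed upward. The changed calls of the carriers thus came with changed counts over all unigenes.

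From intermediate to mature leaves TPT and UCP1 rose, and for DTC no difference was found. TPT rose by 0.77 on the log2 scale (standard error 0.20, adjusted p = 0.0173 from limma), a 1.72-fold difference of means. UCP1 rose by 0.66 (standard error 0.14, adjusted p = 0.00654 from limma), a 1.57-fold difference. Passing upward was again frequent, at 16.1% of all unigenes. The change of DTC was 0.11 (standard error 0.12, adjusted p = 0.532 from limma), with a 95% interval from -0.17 to 0.39. For TPT and UCP1 every mature library lay above every intermediate library, as for 21.8% of unigenes. The TPT call was lost without intermediate replicate 2 (0.77, limma, adjusted p = 0.054). Without scaling of TPM neither TPT (0.34) nor UCP1 (0.23) passed, the median unigene fell by 0.43, and DTC stood at -0.32, with every mature library below every intermediate one, as for 35.3% of the 36907 unigenes.

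Whether the steps differed in size was tested as the second step minus the first. The difference was -0.33 for DTC (standard error 0.21, 95% interval -0.82 to 0.15, adjusted p = 0.547 from limma), 0.07 for UCP1 (adjusted p = 0.938) and 0.07 for TPT (adjusted p = 0.952). No carrier passed, so the DTC steps of 0.45 and 0.11 were not shown to differ. Among all unigenes 0.743% had a larger and 1.52% a smaller second step.

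**Figure D2:**
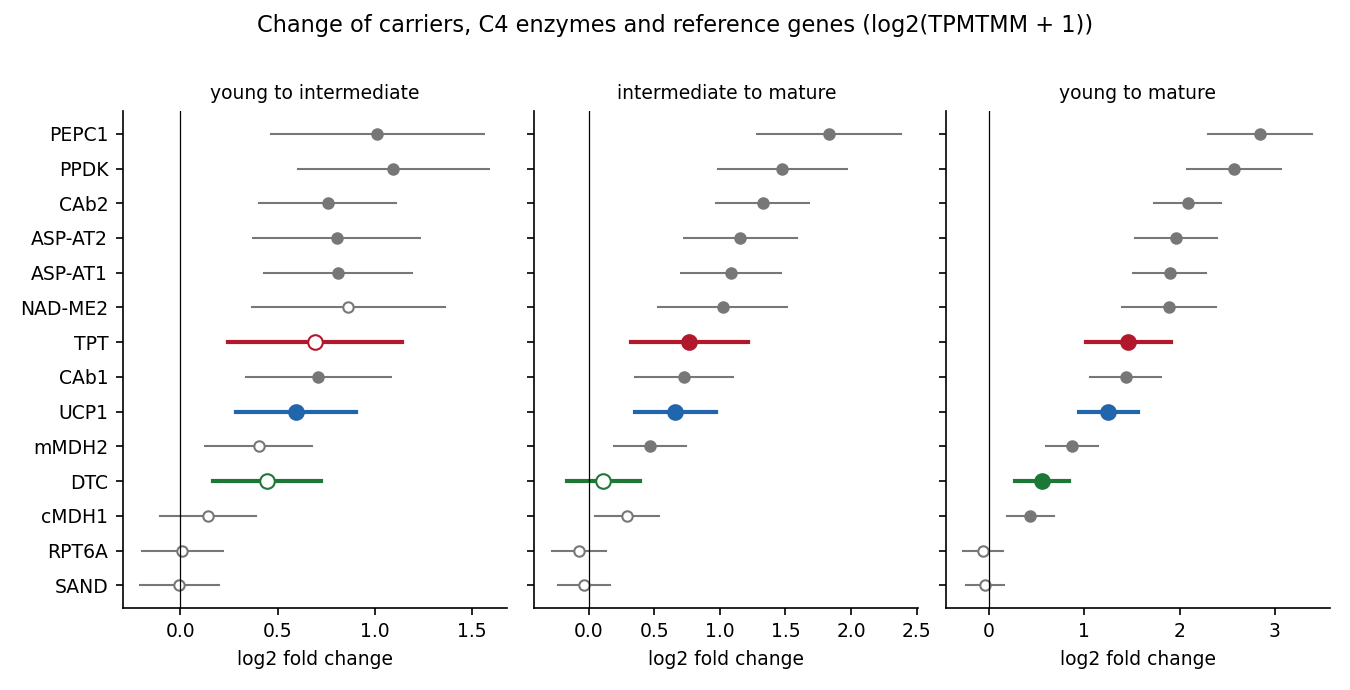
Log2 fold change with its 95% interval (x axis, log2(TPMTMM + 1) scale) of the 3 carriers (coloured), the 9 C4 cycle enzymes and 2 reference genes (grey) in each comparison of 2 stages; filled points passed an adjusted p of 0.05. From young to mature leaves TPT (1.46), UCP1 (1.25) and DTC (0.56) ranked 7th, 9th and 11th of the 12 carriers and enzymes.

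Scaling between libraries drops out when a carrier is divided by other genes of the same library. The first such measure was the TPM of a carrier over the geometric mean of RPT6A, a proteasome subunit, and SAND. Both were used as reference genes for RT-PCR and were chosen as stable in these libraries. This ratio is therefore not independent of the TPMTMM scale, on which they were level. The 3 carriers differed between stages by exact permutation tests over the 280 arrangements of 3 groups of 3, two-sided, with Benjamini-Hochberg adjustment over the 3 ratios of this kind. TPT was 8.61-fold, 13.9-fold and 24.9-fold the reference in young, intermediate and mature leaves (exact p = 0.00357, adjusted p = 0.00536). UCP1 was 3.05-fold, 4.61-fold and 7.65-fold (exact p = 0.00357, adjusted p = 0.00536). DTC was 4.06-fold, 5.54-fold and 6.27-fold (exact p = 0.0107, adjusted p = 0.0107). The mean TPM of DTC was 269.9 in young and 272 in mature leaves. That of RPT6A went from 153 to 99.8 and that of SAND from 28.7 to 18.65. The higher DTC ratio in mature than in young leaves thus came with lower TPM of the references. The smallest p this design allows is 0.00357, and for a pair of stages, 3 libraries against 3, it is 0.1.

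The balance between the carriers also shifted. Of the summed TPM of the 3 carriers, DTC made up 25.8% ± 1.99 at the young, 22.9% ± 0.921 at the intermediate and 16.1% ± 0.125 at the mature stage (SD, n = 3 each). The share of TPT was 54.7% ± 3.78, 57.8% ± 3.75 and 64.0% ± 3.72, and that of UCP1 19.4% ± 2.04, 19.2% ± 2.83 and 19.9% ± 3.66. The chloroplast carrier thus took more and DTC less of the total, and the UCP1 share moved by less than its SD. In young leaves DTC (238 to 297 TPM) lay above UCP1 (182 to 219 TPM) in all libraries, and so it did in intermediate leaves (328 to 347 against 255 to 317 TPM). In mature leaves the ranges overlapped (232 to 316 against 309.6 to 358 TPM), and DTC stayed above UCP1 in mature replicate 1 only.

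Taken as log2 ratios within a library, UCP1 to DTC was -0.32, -0.53 and -0.39 in young replicates 1, 2 and 3, -0.34, -0.36 and -0.09 in intermediate leaves and -0.03, 0.41 and 0.48 in mature leaves. Mature libraries lay above all others, and young and intermediate libraries overlapped. The mean ratio was 0.751-fold in young and 1.22-fold in mature leaves (exact permutation p = 0.0107 over stages, adjusted p = 0.0161 over the 3 ratios). This call was lost when any young or intermediate library was left out (exact permutation tests, adjusted p = 0.0643 to 0.0911), with a young to mature difference of 0.64 to 0.74.
TPT to DTC was 1.21, 1.20 and 0.84 in young, 1.43, 1.41 and 1.16 in intermediate and 2.09, 1.97 and 1.91 in mature replicates 1, 2 and 3. Here too the mature libraries stood apart from the rest. The mean ratio went from 2.12-fold to 3.98-fold (exact permutation p = 0.0107, adjusted p = 0.0161), and without intermediate replicate 1 or 2 the call was lost (adjusted p = 0.0643 in either exact permutation test, difference 0.91).
TPT to UCP1 was 2.82-fold in young, 3.02-fold in intermediate and 3.26-fold in mature leaves. Its libraries overlapped between all stages, from 1.23 to 1.73, from 1.25 to 1.77 and from 1.43 to 2.12 on the log2 scale, and no difference was found (exact permutation p = 0.686, adjusted p = 0.686). Leaving out mature replicate 1, the highest, took the young to mature difference from 0.21 to near 0.

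**Figure D3:**
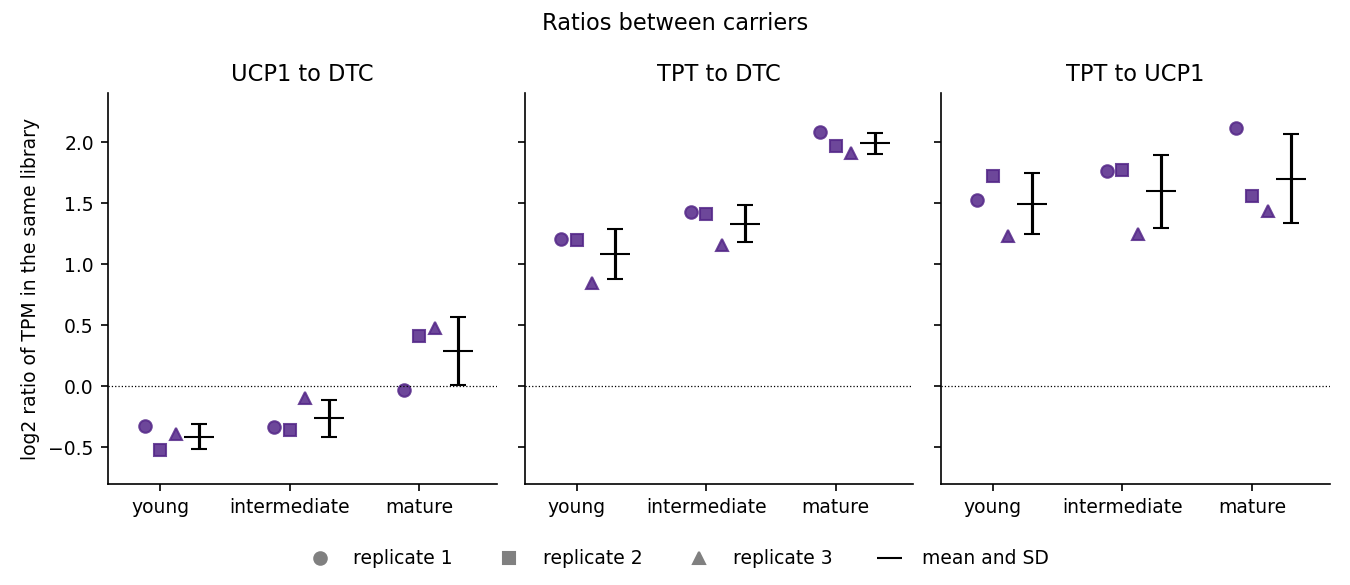
Log2 ratio of the TPM of 2 carriers in the same library (y axis) by leaf stage; symbols are replicates 1, 2 and 3, and the bar is the mean with its SD. UCP1 to DTC and TPT to DTC were higher in mature libraries than in all others, while TPT to UCP1 overlapped between the stages.

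The C4 cycle enzymes listed with the carriers had a median log2 change of 1.90 between young and mature leaves. They are PEPC1, PPDK, NAD-ME2, the beta carbonic anhydrases CAb1 and CAb2, the aspartate aminotransferases ASP-AT1 and ASP-AT2, and the malate dehydrogenases cMDH1 and mMDH2. All 9 passed upward from young to mature leaves, 8 from intermediate to mature leaves and 6 from young to intermediate leaves, and none passed downward, where the upward shares over all unigenes were 24.2%, 16.1% and 2.99%. The count of 6 ranged from 0 to 7 when single libraries were left out, where 9 to 620 of the 11709 unigenes passed upward. Carriers and enzymes had been picked together from these same libraries as genes of the cycle, so their shared direction is not independent evidence. In the order of change TPT (1.46) stood next to CAb1 (1.43), UCP1 (1.25) lay between CAb1 and mMDH2 (0.87), and DTC (0.56) lay between mMDH2 and cMDH1 (0.43).

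Relative to the geometric mean TPM of the 9 enzymes, DTC and UCP1 differed between stages and were lowest in mature leaves. DTC was 0.394-fold the enzyme mean in young, 0.322-fold in intermediate and 0.169-fold in mature leaves (exact permutation p = 0.00357, adjusted p = 0.0107 over the 3 ratios). UCP1 was 0.296-fold, 0.269-fold and 0.206-fold (exact permutation p = 0.00714, adjusted p = 0.0107). For TPT no difference between stages was found, at 0.835-fold, 0.812-fold and 0.672-fold (exact permutation p = 0.35, adjusted p = 0.35). These calls held whichever single library was left out. All 9 enzymes were picked from these same libraries and rose, so the lower ratios show only that DTC and UCP1 rose less than the enzyme mean.

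Of the other lists, the 6 photosystem and chlorophyll genes rose, all 6 from young to mature leaves, with a median change of 1.07, where 24.2% of all unigenes passed upward. Among 4 other membrane transport genes (ABCC5, KAB1, AT1G02260 and AT1G04570) 0 passed upward and 1 downward (median -0.27). The gene that fell was AT1G04570, which was low, at 0.67 to 1.1 TPM in mature libraries. Other organelle carriers that the paper reports as upregulated or highly expressed, such as PPT1, BASS2 and DIC, were not on this list. Among 6 other mitochondrial proteins 0 passed upward and 1 downward (median -0.11). In this comparison 23.9% of all unigenes passed downward. Markers of other cells moved with stage too. The summed TPMTMM of 4 dividing cell markers was 70.7 to 84.9 in young, 52.7 to 58.9 in intermediate and 33.3 to 39.4 in mature libraries, and all 4 fell from young to mature leaves. The sum of 4 epidermis markers was 380 to 469, 448 to 476 and 262 to 295, and 2 of 4 fell. No marker of either list was at 0 in any library. The part of these shifts in the carrier changes was not tested.

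DTC was not the only unigene of its assembly component. A component is a set of contigs that the assembler grouped by shared sequence, and the component of DTC held 4 unigenes in the TPM table, of which only DTC was in the TPMTMM table. After the filtering by the authors, UCP1 and TPT were each the only unigene of theirs, as was the case for 58.8% of the 17118 components. Contigs removed by that filtering cannot be seen here, so UCP1 and TPT may have had others. The quantification divides shared reads between such unigenes, so their separate levels are uncertain, and from the files it cannot be read whether the DTC primers shown above also match the other 3.

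The other DTC unigenes were low, and on the unscaled TPM scale, on which the median unigene also fell, their means were lower at each later stage. The largest, BS12288_c0_g1_i3, had 36.9, 44.9 and 45.0 TPM in young replicates 1, 2 and 3, 30.6, 33.9 and 27.3 TPM in intermediate leaves and 19.5, 14 and 5.59 TPM in mature leaves. On this scale it did not overlap between stages, as 21.5% of the 36907 unigenes had every intermediate library below every young one and 35.3% every mature library below every intermediate one. BS12288_c0_g1_i1 had 12.6 ± 0.973, 7.50 ± 1.29 and 5.46 ± 1.83 TPM at the 3 stages (SD, n = 3 each), and BS12288_c0_g1_i6 had 8.80 ± 1.79, 3.63 ± 1.33 and 2.12 ± 1.01 TPM. In a limma fit of all 36907 unigenes scaled by the factors of the authors, where 16.8% of unigenes passed downward and 13.2% upward from young to mature leaves, DTC rose by 0.56 (adjusted p = 0.0117). In the same fit BS12288_c0_g1_i6 fell by 1.27 on the log2 scale (adjusted p = 0.0127 from limma) and BS12288_c0_g1_i3 fell by 1.25 (adjusted p = 0.0227 from limma). For BS12288_c0_g1_i1 the change was -0.62 (adjusted p = 0.0679 from limma). In the single steps none of these 3 passed in this fit. From young to intermediate leaves BS12288_c0_g1_i3 stood at -0.34 (adjusted p = 0.786 from limma), and from intermediate to mature leaves BS12288_c0_g1_i1 stood at -0.05 (adjusted p = 0.919 from limma). The call of BS12288_c0_g1_i3 was lost without young replicate 2 (adjusted p = 0.0685 from limma, change -1.22) or 3 (adjusted p = 0.0713, change -1.19), and its change was -0.80 without mature replicate 3 (adjusted p = 0.0101) and -1.59 without mature replicate 1 (adjusted p = 0.00438). The call of BS12288_c0_g1_i6 was lost without young replicate 2 (adjusted p = 0.0538 from limma, change -1.14). That of BS12288_c0_g1_i1 passed without mature replicate 3 (adjusted p = 0.00719 from limma, change -0.87).

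Within the component, DTC therefore made up 82.4%, 81.5% and 78.6% of the TPM in young replicates 1, 2 and 3. It made up 88.7%, 87.9% and 90.4% in intermediate leaves and 92.2%, 92.8% and 94.3% in mature leaves. The 3 stages did not overlap in this share, which does not depend on scaling between libraries. Its means were 80.8% ± 2.01, 89.0% ± 1.28 and 93.1% ± 1.08 (SD, n = 3 each, exact permutation p = 0.00357 over stages, the smallest possible). This test was chosen after the values had been seen, so its p is not independent of them. How often shares within other components separate in this way was not examined. The other 3 unigenes together had 63.7 ± 4.68, 41.8 ± 5.09 and 20.6 ± 6.36 TPM, and the whole component 334 ± 30.8, 379 ± 10.4 and 293 ± 48.3 TPM. Summed over the 4 unigenes, an alternative chosen after seeing the data, DTC rose by 0.35 on the log2 scale from young to mature leaves (standard error 0.12, adjusted p = 0.04 from limma), against 0.56 for its unigene alone. Across the assembly, 208 of 6669 assembly genes with at least 2 unigenes (3.12%) had both a unigene that rose and one that fell. Among those with at least 4 unigenes, as DTC has, it was 110 of 1359 (8.09%). For DTC this pattern was picked after seeing the values, and the downward calls in it were lost without single libraries.

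**Figure D4:**
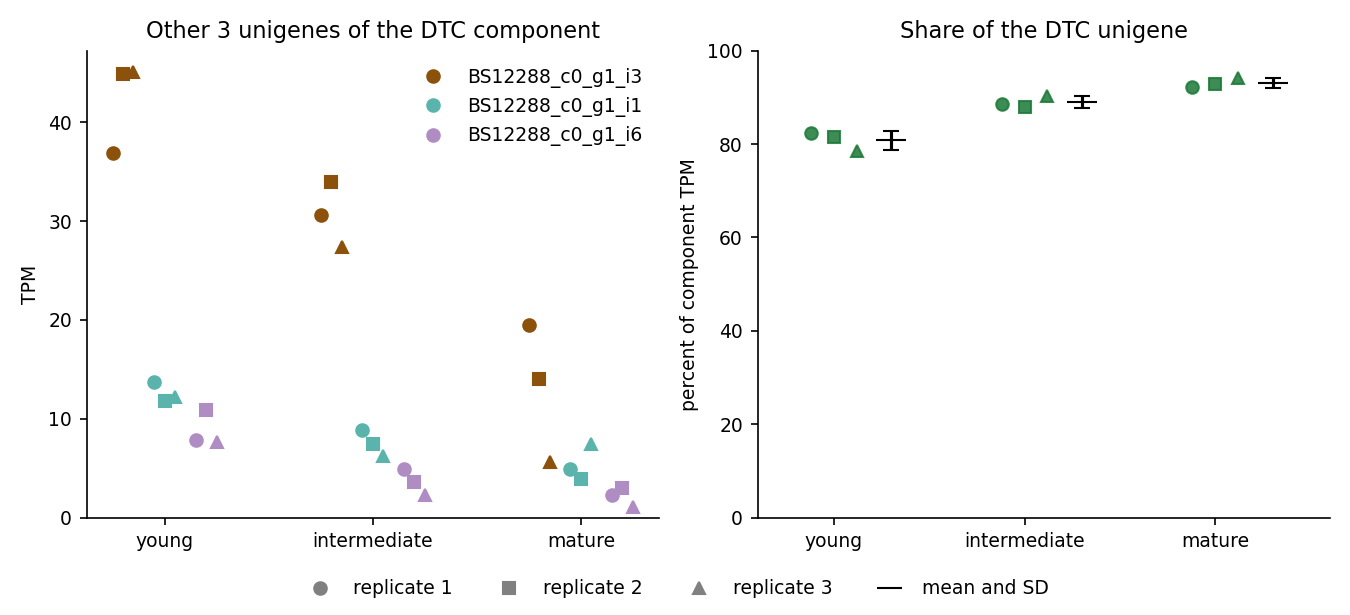
Left, TPM of the other 3 unigenes of the DTC component by leaf stage (y axis from 0, symbols are replicates 1, 2 and 3). Right, percent of the component's TPM that the DTC unigene made up, with the mean and SD, from 80.8% in young to 93.1% in mature leaves.

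The closest profiles to each carrier were found by Pearson's r of log2(TPMTMM + 1) over the 9 libraries, among 8062 unigenes with a mean TPMTMM of at least 10. These r describe the same libraries, stages and scaling and carry no test. UCP1 was closest to the unnamed unigenes BS592_c0_g1_i2 (r = 0.997), BS19597_c0_g1_i1 (0.997) and BS5201_c1_g1_i1 (0.995). Of the listed genes it was closest to NAD-ME2 (0.987), mMDH2 (0.987) and PPDK (0.985). NAD-ME2 decarboxylates malate in mitochondria, mMDH2 interconverts malate and oxaloacetate there, and PPDK regenerates phosphoenolpyruvate in chloroplasts.

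TPT was closest to BS6390_c0_g1_i4 (0.995), BS3504_c1_g3_i3 (0.995) and BS4249_c0_g1_i3 (0.994). Its nearest listed genes were HCAR (0.993), an enzyme of the chlorophyll cycle, PORC (0.989), an enzyme of chlorophyll synthesis, and PSAD2 (0.977), a subunit of photosystem I. None of the 3 belongs to the C4 cycle. DTC was closest to BS179_c0_g3_i1 (0.986), BS6413_c0_g1_i11 (0.985) and BS37244_c0_g1_i4 (0.981), and among listed genes to CPX1 (0.951), which acts in the making of the chlorophyll precursor, to CAb1 (0.926) and to HCAR (0.920). An r over 0.95 was reached by 37 unigenes with DTC, 526 with UCP1 and 354 with TPT. Between the carriers r was 0.841 for DTC and UCP1, 0.914 for DTC and TPT and 0.911 for UCP1 and TPT, so no carrier was the closest match of another.

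**Figure D5:**
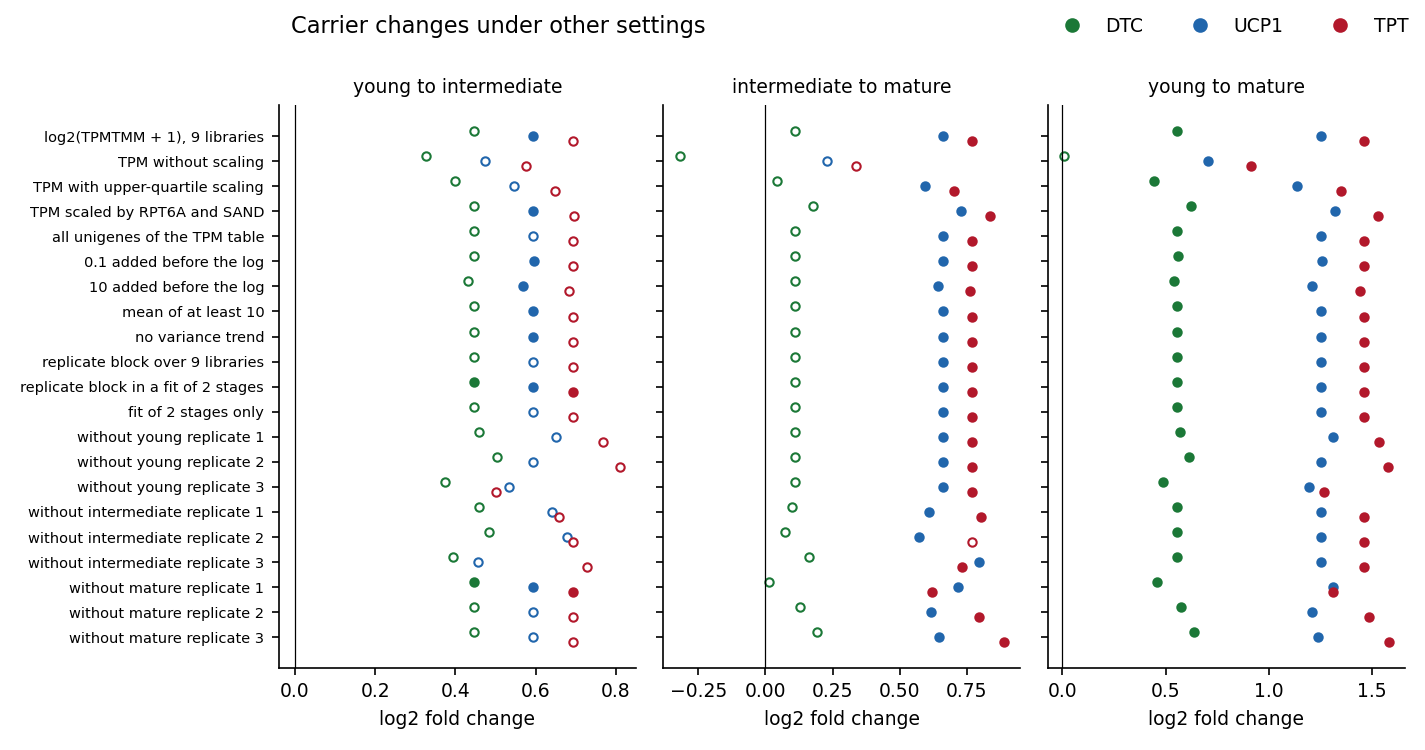
Log2 fold change of DTC, UCP1 and TPT (x axis) in each comparison under every processing setting (y axis); filled points passed an adjusted p of 0.05 and open points did not. From young to mature leaves TPT and UCP1 passed in every setting shown, and DTC in all but TPM without scaling (0.01).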

How the data were processed

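The authors sequenced stranded mRNA libraries (paired ends), used Trimmomatic for trimming, Trinity for a joint de novo assembly of the 9 libraries and RSEM for quantification, and filtered transcripts by a TPM under 1 and by CD-HIT-EST at an identity of 0.95. Their versions were not given in the sources used here. The authors deposited TPM of 36907 unigenes and TPMTMM of 11709. In 11708 of the 11709, TPMTMM equals TPM rounded to whole numbers plus 1, times 1 factor per library (tolerance 0.001). Neither table holds counts, so depth and counting error are unknown.

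Stages were compared with limma 3.58.1 (R 4.3.3) on log2(TPMTMM + 1), in 1 fit of 9 libraries with a variance trend and stage as the only term, Benjamini-Hochberg adjustment over 11709 unigenes and a threshold of 0.05. The fit was tested on simulated data. Fold changes on this scale understate changes of low unigenes. Ratios of TPM within a library were compared by exact permutation tests, two-sided. Python 3.11.15, pandas 2.3.3, numpy 2.4.6 and matplotlib 3.10.9 were used. Carriers, gene lists and tests were chosen with earlier results of these data known. Named genes are the carriers, the listed genes, other unigenes of a carrier's component, and the 3 unigenes and 3 listed genes with the highest r to each carrier.

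Same-numbered young and intermediate libraries correlated in their deviations from the stage means (0.467, 0.445 and 0.696), so replicate number was used as a block in alternative fits. Young replicates 1 and 2, however, correlated better with intermediate replicates 2 (0.508) and 1 (0.547). Pairs with mature replicate 2 were negative (-0.427 and -0.476). Pairing by number was thus not established, and the fit with stage as the only term used none. Alternatives were other scalings, pseudocounts and filters, the whole TPM table, no variance trend, fits of 2 stages, replicate blocks, each library left out, and, chosen after seeing the data, DTC summed over its component.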

Additional observations from a re-analysis of the deposited data

How the results depend on the processing

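The rise of TPT and UCP1 from young to mature leaves, the ratios of the 3 carriers to the reference genes, and those of DTC and UCP1 to the enzymes passed in every alternative run for them. Without scaling of TPM, DTC from young to mature leaves was 0.0076 (no longer past the threshold), DTC from intermediate to mature leaves reversed to -0.32, and UCP1 (0.23) and TPT (0.34) no longer passed in that step, so 0 carriers did. The second step minus the first reversed there to -0.24 for UCP1 and -0.24 for TPT, where the median unigene stood at -0.31. The cause was not tested beyond this common shift. From young to intermediate leaves UCP1 was lost in TPM without scaling (0.47), with upper-quartile scaling (0.55), over all unigenes of the TPM table (0.59), with a replicate block over 9 libraries (0.59) and in a fit of 2 stages only (0.59), leaving 0 carriers in each. Blocking by replicate number with young and intermediate leaves alone gave 3 carriers instead of 1, since DTC (0.45) and TPT (0.69) passed too, and 1510 unigenes rose and 1099 fell, against 350 and 323 without the block. In other comparisons that block changed no call of a carrier.

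Leaving out single libraries gave, from young to intermediate leaves, 0.37 to 0.50 for DTC, 0.46 to 0.68 for UCP1, 0.50 to 0.81 for TPT and 0 to 3 carriers that rose. From intermediate to mature leaves it gave 0.62 to 0.89 for TPT and 1 to 2 carriers. The second step minus the first ranged from -0.11 to 0.34 for UCP1 and from -0.073 to 0.27 for TPT, and never passed. The ratio differences from young to mature leaves were 0.60 to 0.86 for UCP1 to DTC, 0.79 to 0.97 for TPT to DTC and -0.00076 to 0.34 for TPT to UCP1. The DTC share of its component differed by 11.1 to 13.1 percentage points. Among all unigenes, counts that rose and fell went in unscaled TPM from 1886 and 1858 to 772 and 5647 between intermediate and mature leaves, and from 2829 and 2801 to 1297 and 6663 between young and mature leaves. Between young and intermediate leaves they were 106 and 222 over the whole TPM table, 9 and 53 without young replicate 2 and 620 and 514 without mature replicate 1. The 3 libraries per stage and unknown depth limit all of these values.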
